A study of Mus musculus with 6 samples.

Results

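The sparse outer flanks of the Ikzf1 bait were the DpnII fragments that lie between a dense contact domain around the Ikzf1 promoter and a distance of 1.5 Mb from it. They were chosen by position alone, on chromosome 11 of the mouse genome (build mm9), in the 4C library of double-positive (DP) thymocytes with the Ikzf1 promoter as bait. The upstream flank held the fragments with midpoints at chr11:10083520-11283519, which is 300 kb to 1.5 Mb from the bait at position 11583520, and the downstream flank those at chr11:12083521-13083520, which is 0.5 to 1.5 Mb away. Upstream and downstream refer to the reading direction of Ikzf1, which runs toward higher coordinates. The flanks comprised 5742 of the 295446 chromosome 11 fragments listed for this library, 3212 upstream and 2530 downstream, out of 1928618 fragments listed for all 6 libraries. Their inner edges were set with the profile already known, so the drop in signal at those edges is not a result.

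4C-seq counts ligations between 1 chosen bait fragment and other restriction fragments. The counts used here cover the chromosome of the bait only. Reads of a library, and shares of them, refer below to these counts. The library came from CD4+/CD8+ thymocytes sorted by FACS from the thymus of c57/Bl6 mice at 4 weeks of age. After fixation in 2% formaldehyde for 10 min, the DNA was cut with DpnII and then with Csp6I. The other libraries were DP_Satb1 from the same cell type, ES_Satb1, ES_SCR (2 replicates) and NPC_SCR. SCR is the Sox2 control region and ES are embryonic stem cells. NPC are ES cells differentiated in vitro toward neural precursor cells, with retinoic acid according to the Methods of the paper. The Ikzf1 bait was studied in 1 library, so nothing below has a replicate error or a test. Intervals are exact 95% binomial intervals on a share of fragments, or 95% log intervals on a ratio of shares. Both cover counting error only, since PCR copies and independent ligations cannot be told apart and neighbouring fragments are not independent.

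Ikzf1 encodes Ikaros, a zinc finger transcription factor needed for lymphocyte development and active in thymocytes. In chromosome conformation capture, contacts of a promoter are frequent within its own topological domain and fall with distance, so that far along the chromosome only scattered single ligations remain. At that level the share of fragments with any read describes the profile better than the mean, because a ligation amplified by PCR can give many reads to a single fragment. Fragments with at least 1 read are called detected below.

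The 3 fragments with the most reads in each flank are shown with sequence from the mm9 reference, plus strand unless stated, because a few such fragments carry much of the flank signal. Capitals mark the DpnII site GATC and the Csp6I site GTAC. For 4 of them the 25 bases from the first GATC of the fragment are given, which is the length of prey sequence left in a read. The first upstream fragment is only 15 bp long, so its last printed bases belong to the next fragment. The second upstream fragment is given whole because its ends are repeated across the genome, and the first downstream fragment because it holds the largest share of its flank.
upstream 1 (chr11:10455558-10455572, 1515 reads): GATCaactttatcttGATCttcagc
upstream 2 (chr11:10296227-10296376, 1000 reads): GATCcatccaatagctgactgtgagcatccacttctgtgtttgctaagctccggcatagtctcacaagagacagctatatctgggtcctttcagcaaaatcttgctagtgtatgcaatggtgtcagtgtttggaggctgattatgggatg
upstream 3 (chr11:10218093-10218602, 947 reads): GATCaaccaagtcttgcatcccaca
downstream 1 (chr11:12232517-12232743, 1019 reads): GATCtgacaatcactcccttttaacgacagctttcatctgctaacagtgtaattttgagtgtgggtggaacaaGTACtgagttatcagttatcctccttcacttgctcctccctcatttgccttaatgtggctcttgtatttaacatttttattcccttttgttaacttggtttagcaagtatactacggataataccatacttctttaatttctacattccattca
downstream 2 (chr11:12829652-12830318, 374 reads): GATCtgtcaataaggaaccaacagc
downstream 3 (chr11:12196053-12196747, 360 reads): GATCctaggttccagaaggtgagag

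Reads were few in both flanks. Together they held 25414 of the 2314166 reads of the library (1.098%), and 142 of 5742 fragments were detected, a share of 2.47% (interval 2.09 to 2.91). The contact domain between them held 72.6% of the reads on 1993 fragments, of which 50.0% were detected. The upstream flank had 21703 reads on 110 detected fragments, a share of 3.42% (2.82 to 4.11). The downstream flank had 3711 reads on 32 detected fragments, a share of 1.26% (0.867 to 1.78). Mean reads per fragment were 6.76 upstream and 1.47 downstream, against 842.9 in the contact domain. Library totals ranged from 1847598 to 6447786 reads over the 6 libraries.

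The level 5 to 10 Mb from the bait served as the reference. On the upstream side this range is cut short by the start of the chromosome and reaches 8.58 Mb. There 370 of 8778 fragments were detected upstream (4.22%, 3.804 to 4.657) and 256 of 12329 downstream (2.08%, 1.83 to 2.34). The upstream flank stood at 0.812 times its far level (interval of the ratio 0.659 to 1.001) and the downstream flank at 0.609 times (0.423 to 0.878). Neither flank as a whole was detected above the fragments 5 to 10 Mb away on its own side, and for the downstream flank the interval of the ratio lay below 1. In mean reads per fragment the ratios were 0.982 upstream and 0.517 downstream. The far level itself differed between the sides: against both sides together (2.97%) the upstream ratio was 1.16, so its direction depends on which far fragments are taken. Against the lower level 3 to 5 Mb away both flanks stood above it, at 1.45 times upstream (1.13 to 1.88) and 1.86 times downstream (1.16 to 2.99).

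Going outward upstream, the share of detected fragments within the contact domain was 64.0% in the first 100 kb and 92.3% in the next. Of the fragments in the first 100 kb 34.7% had no end sequence that occurs once in mm9, against 5.24% in the next. In the contact domain 8.38% of such fragments were detected, against 58.35% of the others. The part of this difference in the rise was not tested. Farther out the share dropped. In the last 100 kb of the domain (200 to 300 kb from the bait) 129 of 259 fragments were detected (49.8%). The first 100 kb of the flank had 23 of 304 (7.57%, 4.86 to 11.1) with 4943 reads, and the next 13 of 236 (5.51%, 2.97 to 9.24) with 1452 reads. A 100 kb bin was called above the far level where the lower bound of its share exceeded the far share of its side, and contacts were taken to stop at the first bin outward from the bait that did not. By this rule 1 of 12 upstream bins was above, the one at 300 to 400 kb, and contacts stopped at 400 kb. Among the 71 upstream bins between 1.5 Mb and the chromosome start 11.3% were above, so 1 in 12 is no more than that background.

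In steps of 25 kb the upstream drop began inside the domain. All 53 fragments at 200 to 225 kb were detected, then 50.0% at 225 kb, 36.8% at 250 kb and 23.5% at 275 kb. The first step of the flank had 8 of 99 (8.08%, 3.55 to 15.3), and the next 3 had 9.09%, 3.12% and 9.33%. The shares of 8.08%, 9.09% and 9.33% lay above the far share of 4.22%, but no lower bound of a 25 kb bin in the upstream flank did. By the rule contacts then stopped at 300 kb, the edge used to define the flank. These steps held 64 to 99 fragments, against 304 in the 100 kb bin, and their intervals were wider. The stop between 300 and 400 kb therefore changed with bin size. It also depends on the far level taken: against the level 3 to 5 Mb away 4 of the 12 upstream 100 kb bins were above. At 300 to 400 kb 47.0% of the fragments had no end sequence that occurs once in mm9. The 25 kb calls were not repeated without such fragments, so their part in the lost call was not tested.

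Beyond 400 kb the upstream share had a low middle and a higher outer stretch, divided at 1.1 Mb after the bins were seen. From 500 kb to 1.1 Mb 28 of 1582 fragments were detected (1.77%, 1.18 to 2.55), and from 1.1 to 1.5 Mb 46 of 1090 (4.22%, 3.11 to 5.59). Of the 8894 reads of the outer stretch 1515 were on a 15 bp fragment, shorter than a read. A further 1000 were on a fragment with no end sequence that occurs once in mm9. The lowest bin was 600 to 700 kb, with 2 of 260 fragments (0.769%, 0.0933 to 2.75) and 113 reads. The bin at 1.0 to 1.1 Mb had 3 of 292 (1.03%, 0.212 to 2.97) and 11 reads. These 2 bins were below the far level, 2 of 12 against 35.2% of the 71 bins past 1.5 Mb. The outermost bins, 1.3 to 1.4 Mb and 1.4 to 1.5 Mb, had 14 of 258 (5.43%, 2.998 to 8.937) and 15 of 289 (5.19%, 2.93 to 8.42), which overlap the interval of the innermost bin. All 12 bins had reads, and their shares had a median of 2.70%.

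Downstream, contacts stopped before the flank began by the same rule, set against the level 5 to 10 Mb away. The domain bin at 300 to 400 kb had 32 of 215 fragments detected (14.9%, 10.4 to 20.4), and the bin at 400 to 500 kb had 6 of 316 (1.90%, 0.6999 to 4.087), which was not above the far level. None of the 10 flank bins was above it, against 9.41% of the 85 downstream bins from 1.5 to 10 Mb. Set against the lower level 3 to 5 Mb away, 2 of the 10 were above, so the downstream stop also depends on the far level taken. The highest shares were in the first flank bins, 8 of 212 at 500 to 600 kb (3.77%, 1.64 to 7.30) with 448 reads and 8 of 217 at 600 to 700 kb (3.69%, 1.61 to 7.14) with 1957 reads. Their lower bounds lay under the far share of 2.08%. Taken as a single 200 kb bin, 16 of 429 fragments were detected (3.73%, 2.15 to 5.99), and in 25 kb bins 4 of 53 were at 525 to 550 kb (7.55%, 2.095 to 18.2). Both lower bounds exceed the far share, so the call here depends on bin size. Such bins were 1 of 5 at 200 kb, 0 of 20 at 50 kb and 1 of 40 at 25 kb. The background past 1.5 Mb was computed for 100 kb bins only, so these calls have none to be set against.

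From 700 kb outward the downstream flank was nearly empty. From 0.7 to 1.5 Mb 16 of 2101 fragments were detected (0.762%, 0.436 to 1.23). The bin at 800 to 900 kb had 0 of 235, which allows a share of up to 1.28% by 3 counts and 1.56% by the exact upper bound. It was the one bin of 10 below the far level, where 14.1% of the bins past 1.5 Mb were. Between 1.1 and 1.2 Mb a single fragment of 266 was detected, with 4 reads, and between 1.3 and 1.4 Mb 2 of 259, with 3 reads in all. The longest stretch without a detected fragment ran for 183.9 kb, from 798.5 to 982.4 kb from the bait (chr11:12382031-12565956), across 471 fragments. The longest one upstream was 58.8 kb with 170 fragments (chr11:10529330-10588144, 995.4 to 1054 kb).

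**Figure D1:**
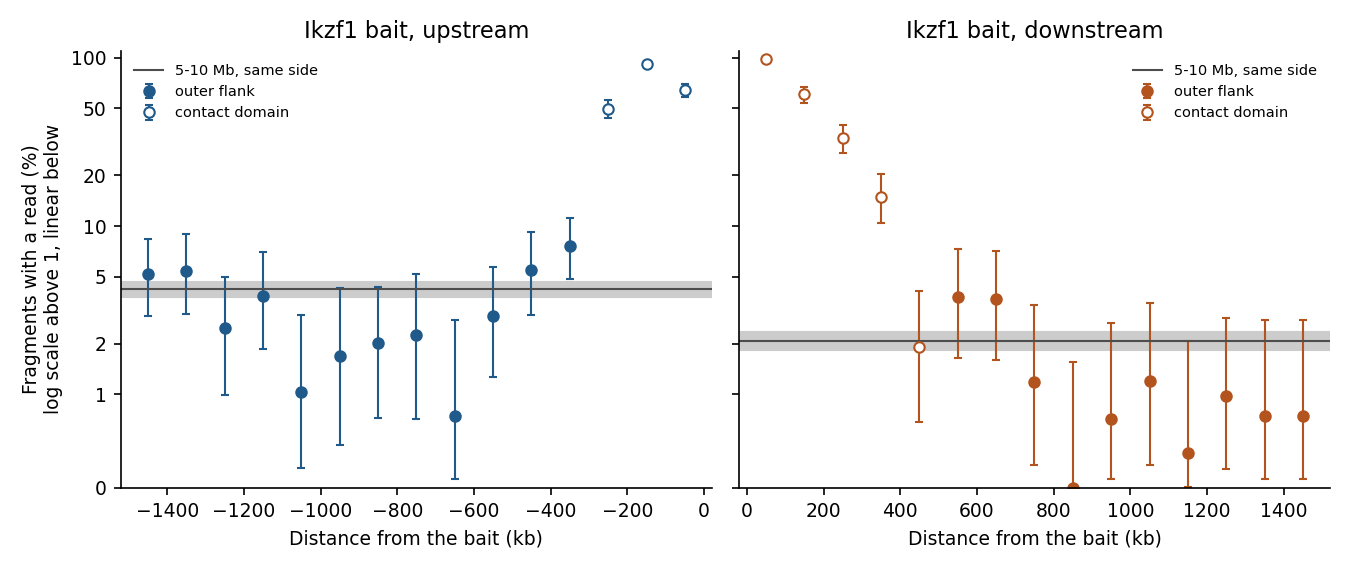
Share of fragments with at least 1 read per 100 kb bin against distance from the Ikzf1 bait, points with exact 95% binomial bars on an axis that is logarithmic above 1% and linear below, upstream flank from 300 kb and downstream flank from 0.5 Mb, beside the domain bins and the far level of each side (4.22% upstream, 2.08% downstream). The upstream bins dip at 600 to 700 kb and rise again past 1.1 Mb, whereas the downstream bins stay low past 700 kb.

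At matched distances of 0.5 to 1.5 Mb the upstream side had 74 of 2672 fragments detected (2.77%, 2.18 to 3.46) and the downstream side 32 of 2530 (1.26%). The upstream share was 2.19 times the downstream share (1.45 to 3.30). The 5 to 10 Mb fragments differed in the same direction, 4.22% against 2.08%. The sides differed in the outer stretch. From 0.5 to 1.1 Mb on both sides the shares were 1.77% upstream and 1.67% downstream (24 of 1439, 1.07 to 2.47), a ratio of 1.06 (0.618 to 1.82). From 1.1 to 1.5 Mb they were 4.22% upstream and 0.733% downstream (8 of 1091, 0.317 to 1.44), with intervals that do not overlap. The cut at 1.1 Mb was placed after the bins were seen, so this contrast describes the profile and does not test it.

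Past 1.5 Mb the shares varied widely from bin to bin. They were 2.53% upstream and 0.710% downstream between 1.5 and 5 Mb. In 500 kb bins the upstream share was 3.55% (2.63 to 4.66) at 1.0 to 1.5 Mb, 1.05% at 1.5 to 2.0 Mb and 1.03% at 2.0 to 2.5 Mb, then 6.40% (5.10 to 7.92) at 2.5 to 3.0 Mb and 6.79% at 3.0 to 3.5 Mb. Downstream it was 1.77% at 0.5 to 1.0 Mb and 0.820% at 1.0 to 1.5 Mb, and no 500 kb bin exceeded 1.14% between 1.5 and 5 Mb. The far level is uneven too, with downstream bins from 0.584% to 1.90% between 5 and 8 Mb and 4.62% at 8.0 to 8.5 Mb.

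**Figure D2:**
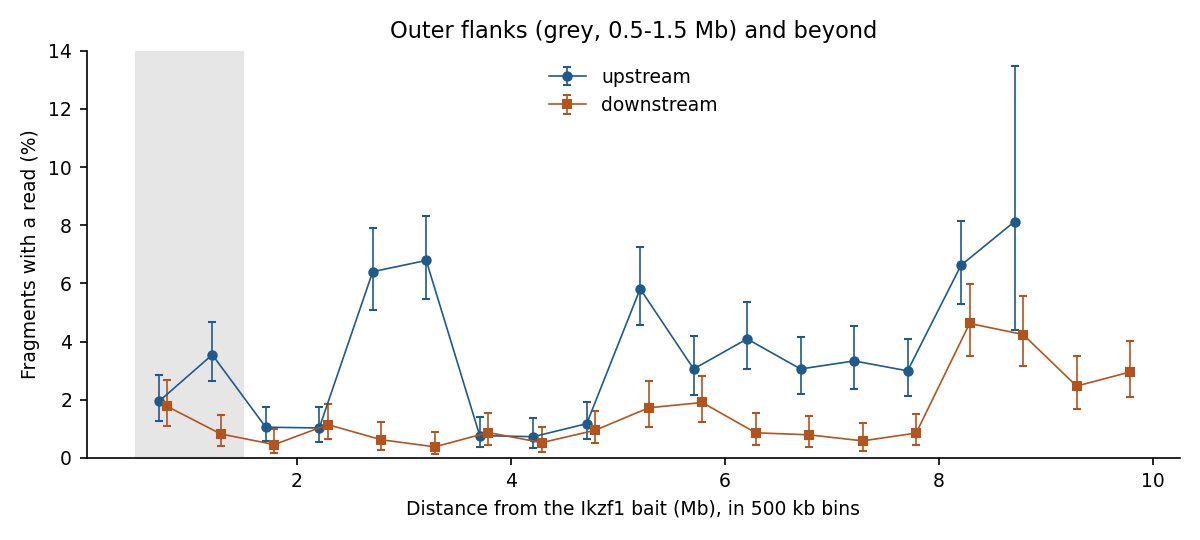
Share of detected fragments per 500 kb bin out to 10 Mb downstream of the Ikzf1 bait and to the chromosome start, 8.58 Mb away, upstream, with exact 95% bars. The last upstream bin is partial, with 160 fragments. The flank bins at 1.0 to 1.5 Mb (3.55% upstream, 0.820% downstream) sit among bins farther out that range well above and below them.

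The upstream far range is rich in genes where the flanks are poor. It held 81 protein-coding genes (22.6 per Mb) and its fragments averaged 46.55% GC, against 2 genes (1.67 per Mb) and 39.55% in the upstream flank. The downstream flank had 2 genes (2.0 per Mb) and 40.6% GC, and the downstream far range 26 genes (5.2 per Mb) and 42.0%. The part of gene content and GC in the ratios to the far level was not tested.

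The protein-coding entries that overlap the flanks are Zpbp and Vwc2 upstream and Cobl and Gm17624 downstream, and fragments of the first 3 were detected. Zpbp, which encodes an acrosomal protein of sperm, spans the inner edge of the upstream flank (chr11:11179629-11362411, minus strand, 221.1 to 403.9 kb from the bait). In the flank 25 of its 318 fragments were detected (7.86%, 5.15 to 11.4) with 5410 reads, at most 754 on one fragment. Its whole length had 107 of 530 (20.2%), since its near part lies in the contact domain. Vwc2, which encodes a secreted BMP antagonist (chr11:11014226-11168934, plus strand, 414.6 to 569.3 kb), had 16 of 416 (3.85%, 2.21 to 6.17) with 2963 reads.

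On the downstream side Cobl, the actin nucleator cordon-bleu (chr11:12136611-12364963, minus strand, 553.1 to 781.4 kb), had 12 of 505 fragments detected (2.38%, 1.23 to 4.11) with 2156 reads, of which 1019 were on 1 fragment. That fragment also lies in the noncoding gene Gm12002 (chr11:12214517-12251031), in which 3 of 77 fragments had 1255 reads. Gm17624 is a 200 bp entry at chr11:12548080-12548279 whose 1 fragment had no read. Past the outer edges, Abca13, an ABC transporter gene nearest to the upstream edge (chr11:9091945-9584262, from 1999 kb), had 12 of 1245 (0.964%, 0.499 to 1.68), and Vstm2a, nearest on the downstream side (chr11:16157727-16327313, from 4574 kb), 2 of 450 (0.444%, 0.0539 to 1.60). The bait gene itself had 174 of 176 fragments detected (98.9%) and 393682 reads.

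Inside protein-coding genes the upstream share was 5.59% (41 of 734, 4.04 to 7.50), and outside them 2.78% (69 of 2478, 2.17 to 3.51). The first 100 kb of the flank lies within Zpbp. Without it the share inside genes was 4.19% (18 of 430, 2.50 to 6.54), an interval that overlaps the one outside. Downstream the shares were 2.37% inside (12 of 506, 1.23 to 4.11) and 0.988% outside (20 of 2024, 0.605 to 1.52). Zpbp, Vwc2 and Cobl lie in the nearer part of their flanks, so position and gene content cannot be told apart here. No protein-coding gene lies in the upstream 1.1 to 1.5 Mb, where 4.22% of fragments were detected.

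Read numbers on detected fragments were uneven. Upstream the median was 64 reads (quartiles 15 and 289.5, maximum 1515), 23 of 110 fragments had fewer than 10 reads and 10 had a single read. Downstream the median was 19.5 (quartiles 3 and 169.75, maximum 1019), 11 of 32 had fewer than 10 and 5 had a single read. In the contact domain the median was 462.5, and 5 to 10 Mb away it was 37 upstream and 30 downstream. A detected upstream fragment thus carried more reads than a far one at the median, whereas a detected downstream fragment carried fewer.

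Reads were concentrated on few fragments in both flanks. Of the upstream reads 6.98% were on the top fragment and 39.9% on the top 10, and 15 of the 110 detected fragments held 50% of them. Downstream 27.5% were on the top fragment and 87.4% on the top 10, and 4 of the 32 detected fragments held 50%. With fewer detected fragments downstream, the top 10 are a larger part of them, so the top shares do not compare unevenness between the flanks. The bin at 1.1 to 1.2 Mb upstream owed 72.9% of its 2079 reads to 1 fragment, and the downstream bin at 600 to 700 kb 52.1% of 1957. The order of bins by reads therefore differs from their order by detected share.

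**Figure D3:**
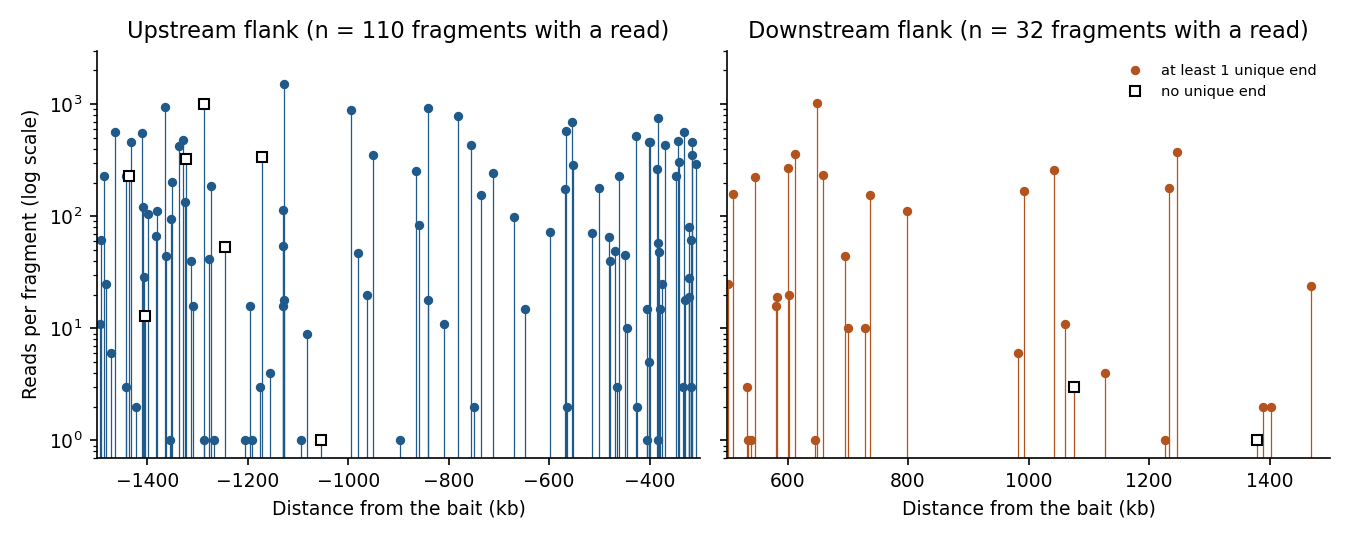
Reads on each detected fragment of the flanks (log axis) against distance from the Ikzf1 bait, upstream to the left and downstream to the right, one point per fragment, with open squares for the 9 fragments that have no unique end. Most points lie under 300 reads, and the upstream points at 1128 kb (1515 reads) and downstream at 649.1 kb (1019 reads) are the highest of their flanks.

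The sequences given above show what kinds of fragment these are. The first upstream fragment, 1128 kb from the bait, is shorter than a read. A read from its left end runs through the next GATC and into the neighbouring 137 bp fragment, which had no read. A read from its right end runs into the 8 bp fragment on the other side, which had no read either. The counts do not tell which end was read. Both end sequences of this first fragment occur once in mm9. Of 24 fragments within 5 kb of it, 5 were detected, and the other 4 had 16, 54, 115 and 18 reads. The highest running mean over 17 fragments in the upstream flank, 101.1 reads per fragment, lay beside it at position 10453641.

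The second upstream fragment, 150 bp at 1287 kb, has ends that occur 15250 and 6280 times in mm9. Its 1000 reads cannot be tied to this position from the sequence alone. The third, 510 bp at 1365 kb with 947 reads, has ends that occur once, and 1 other detected fragment (44 reads) lies within 5 kb. None of the 3 lies in an annotated gene.

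The first downstream fragment, 227 bp at 649.1 kb and within Cobl, has unique ends and 1 Csp6I site. It set the highest running mean of the downstream flank, 60.0 over 17 fragments, while only 1 other fragment within 5 kb was detected, with a single read. The second (667 bp, 1246 kb, 374 reads, no gene) and the third (695 bp, 612.9 kb, 360 reads, in Cobl) had no other detected fragment within 5 kb. Fragments directly on either side of all 6 had no read. Running means over 17 fragments were 0 in 60.1% of upstream windows and 81.4% of downstream windows, and the maximum in the contact domain was 23290.

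Detected fragments lay closer together upstream. Of the 110 upstream 78 had another within 5 kb (70.9%, 61.5 to 79.2) and 16 were next to one (14.5%), with a median gap of 3.07 kb. Of the 32 downstream 10 had one within 5 kb (31.2%, 16.1 to 50.0) and 3 were next to one, with a median gap of 7.46 kb. The far ranges had 69.7% upstream and 55.9% downstream within 5 kb, and the contact domain 99.7%. The upstream flank starts nearer to the bait. Without its innermost 100 kb 57 of 87 had another within 5 kb (65.5%, 54.6 to 75.4), with a median gap of 3.66 kb. The upstream flank also has more detected fragments per kb, and the part of this density in the difference was not tested.

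Shares were close for fragments with and without a Csp6I site and for short and long ones, with overlapping intervals within each pair. Fragments with a Csp6I site were detected in 62 of 2585 cases (2.40%, 1.84 to 3.06) and those without one in 80 of 3157 (2.53%, 2.01 to 3.14). Fragments under 100 bp were detected in 29 of 1416 (2.05%, 1.38 to 2.93) and longer ones in 113 of 4326 (2.61%, 2.16 to 3.13). The median length was 257 bp for detected and 242 bp for other fragments, and the median GC content 38.6% and 39.3%.

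Fragments with no end sequence that occurs once in the genome were seldom detected. Of 1414 such fragments in the flanks 9 had a read (0.636%, 0.291 to 1.21), against 25 of 949 with 1 unique end (2.63%) and 108 of 3379 with both (3.20%). They made up 29.1% of the upstream and 19.0% of the downstream flank, but 6.87% of the upstream and 14.3% of the downstream far range. With the other fragments alone the upstream share was 4.52% (103 of 2278, 3.71 to 5.46) and its ratio to the far level 1.01. The downstream share was 1.46% (30 of 2050) and its ratio 0.619. The first upstream flank bin, the one above the far level, had 47.0% of fragments without a unique end, and the downstream bin at 400 to 500 kb had 45.6%.

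The 2 DP libraries were compared at 0.5 to 1.5 Mb from their baits on both sides together, each relative to its own level 5 to 10 Mb away. The Ikzf1 library had 2.04% detected (1.67 to 2.46) against 2.97% far away (2.74 to 3.20), a ratio of 0.687. The DP_Satb1 library, whose bait lies on chromosome 17, had 24.9% against 1.23%, a ratio of 20.2. The Ikzf1 ratio was 0.0341 times the Satb1 ratio (0.0269 to 0.0432). ES_Satb1 had a ratio of 11.8, and the SCR libraries 13.1, 11.1 and 11.3. The 5 other libraries thus lay between 11.1 and 20.2, all above 1, and the Ikzf1 library alone below it. Baits, chromosomes and, for 4 of these libraries, cell types differ together, so the source of the difference cannot be told apart.

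The same contrast held for reads. Within 0.5 Mb of the Ikzf1 bait lay 72.9% of the reads of its library and within 1.5 Mb 73.7%, whereas for DP_Satb1 the shares were 65.0% and 83.0%. On the side of lower coordinates the Ikzf1 ratio to the far level was 0.657 and on the other 0.609, where the other 5 libraries ranged from 8.30 to 27.1 on single sides. Mean reads per fragment in this range stood at 0.809 times the far level for Ikzf1 and 39.9 times for DP_Satb1.

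**Figure D4:**
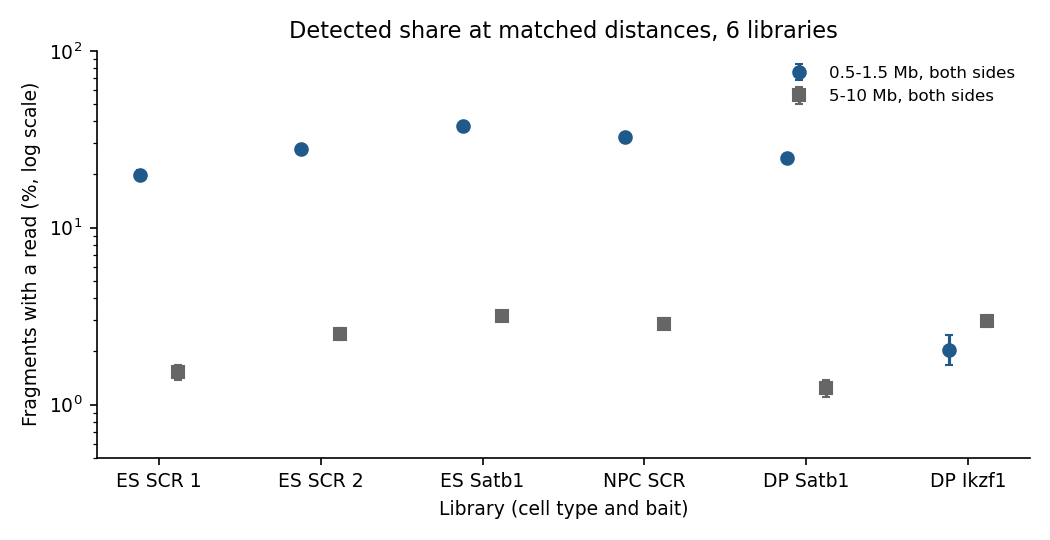
Share of detected fragments 0.5 to 1.5 Mb and 5 to 10 Mb from the bait in each of the 6 libraries, with exact 95% bars (log axis). The Ikzf1 library is the one in which the nearer share (2.04%) is not above the far share (2.97%).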

How the data were processed

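The deposited counts of reads for each DpnII fragment on the bait chromosome were used unchanged. The authors had removed bait sequence (2 mismatches allowed) and aligned the remaining 25 nt to mm9 using Bowtie, version 1.0.0 according to the submitters. How reads with several matches were handled is not given in the sources used here. The software's guide leaves out fragments with over 2% of the total reads. In the deposited chromosome 11 counts 2 fragments hold over 2%, neither in a flank, and the one beside the bait holds 5.37%. These counts lack reads on other chromosomes and any removed earlier, so whether the guide's limit was passed cannot be told. The sample labels give 0.4% SDS for permeabilization and the Methods another concentration for DP cells.

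Listed midpoints (295446 on chromosome 11) were all matched to DpnII fragments of the mm9 sequence, and genes come from GENCODE vM1. Shares, exact intervals and bins of 100 kb were computed in Python 3.11.15 with pandas 2.3.3 and scipy 1.17.1. Named are Ikzf1, protein-coding genes overlapping a flank or nearest past its outer edge, the 3 fragments with the most reads per flank, and the highest and lowest bins. Gm12002 and bins named besides these were chosen after their values were seen. Members, rules and lists were chosen with earlier results of these data known. Each bait and cell type other than ES_SCR had 1 library, so no test was made. Alternatives covered the read minimum, fragment subsets, the far level, bin size and capping.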

Additional observations from a re-analysis of the deposited data

Results flagged for a closer look

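The detected share 0.5 to 1.5 Mb from the bait stood at 0.687 times the share 5 to 10 Mb away in the DP Ikzf1 library, and at 11.1 to 20.2 times in the other 5 libraries. It stands out because the Ikzf1 library went below its far level and every other library above its own. The difference was not tested, since there is 1 Ikzf1 library.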

How the results depend on the processing

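The upstream share relative to the far level, 0.812 as reported, changed side of 1 in 3 settings: 1.01 with fragments that have a unique end, 1.16 with the far level of both sides and 1.45 with the level 3 to 5 Mb away. Its read level, 0.982 as reported, was 1.495 with both sides, 1.85 with 3 to 5 Mb and 1.2 with unique ends. Against 3 to 5 Mb the downstream share was 1.86 and its read level 1.39, and with both sides that read level was 0.324. Upstream bins above the far level numbered 2 with both sides, 4 with 3 to 5 Mb, and 0 without the innermost 100 kb or with 25 kb bins, against 1 as reported. Downstream bins numbered 2 with 3 to 5 Mb and 1 with 200 kb or 25 kb bins, against 0. The upstream over downstream ratio was 1.06 with 0.5 to 1.1 Mb on both sides, and 1.40 with the upstream 1.1 to 1.5 Mb alone left out, where the distances no longer match. The level 3 to 5 Mb away is lower than that 5 to 10 Mb away, and the cause of the other changes was not tested. The settings that leave out the innermost 100 kb or the 1.1 to 1.5 Mb on 1 or both sides, the 25 kb bins, and unique ends for read levels were chosen after seeing the data. The other 37 values of these main comparisons kept their direction. No paired analysis was possible because the Ikzf1 bait has 1 library. Of the upstream reads 4474 (20.6%) lie on 11 fragments that have no unique end or are shorter than a read, and of the downstream reads 4 lie on 2 fragments with no unique end. Bins of the flanks held 212 to 307 fragments, and the intervals of most include the far share, so at this depth they cannot be told from it.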
